A study of Mus musculus with 16 samples.

Results

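Gene expression was measured at embryonic day 8.5 (E8.5) in mouse cells marked by Wnt1-Cre, in embryos without miR-302 (KO) and in wild-type embryos (WT). The cells were sorted by flow cytometry straight into lysis reagent. The comparison was made between 4 KO (KO1, KO2, KO3 and KO4) and 3 WT libraries (WT1, WT2 and WT3), 7 of the 16 samples of the series, and WT1 is the one that its title marks as WT1_5s. The labels do not explain the mark 5s, so whether WT1 was collected at another stage than the remaining libraries is not given. Every gene with a mean normalised read count of at least 10 over these 7 libraries was tested, which left 12257 of the 24421 genes of the table. The labels call the genotypes KO and WT and do not name the targeted allele. Both were on a C57BL/6 background and carried the Wnt1-Cre label, which is itself a transgene that all 7 share. Wnt1 is active in the dorsal neural tube as well as in early crest, so cells sorted by it are a mixture, described in the labels as premigratory and postmigratory crest. KO1 and KO2 carry the same code number (128), KO4 and WT2 share another (169), and the labels do not say whether a code number is a litter. Nor do they say which libraries came from separate embryos, so the p-values rest on the spread among these samples alone, which may be technical. One more E8.5 KO sample, KO4_5s, was not analysed here.

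MicroRNAs are short RNAs that guide a silencing complex to messenger RNAs, mostly through pairing between the seed, bases 2 to 8 of the microRNA, and matching sites in 3′UTRs, and the targeted messages become less stable. The miR-302 family is abundant in pluripotent cells and the early embryo and is known for limiting inhibitors of the cell cycle and holding back differentiation. Neural crest cells arise at the border of the neural plate, leave the dorsal neural tube by delamination, and migrate to form peripheral neurons and glia, pigment cells and the skeleton of the face.

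The mature sequences below are shown because the seed, in capitals, decides which 3′UTR sites were searched. They were taken from RefSeq (GRCm38.p6, chromosome 3 for the miR-302 cluster and chromosome 14 for miR-17), and the miR-302a sequence is not printed.
mmu-miR-302b-3p: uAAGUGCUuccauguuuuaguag
mmu-miR-302c-3p: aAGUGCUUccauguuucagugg
mmu-miR-302d-3p: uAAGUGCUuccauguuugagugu
mmu-miR-367-3p: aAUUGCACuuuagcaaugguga
mmu-miR-17-5p: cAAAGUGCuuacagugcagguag
The RefSeq entry of miR-302c-3p begins 1 base later than the other two, and all of these miR-302 members hold the stretch AAGUGCU. miR-367 lies in the same cluster but has another seed, and miR-17, which is made from another locus, holds the miR-302 stretch shifted by 1 base. In a 3′UTR the 8mer match reads AGCACTTA, and the 7mer matches are AGCACTT and GCACTTA.

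The following stretches of 3′UTR, from GENCODE M21 transcripts (GRCm38), show the matches in genes whose values are described further on, with the matching bases in capitals. The first 5 are 8mer sites and the next 4 are 7mer sites in genes with higher mean levels in KO, and the last is an 8mer site in a gene with lower levels in KO.
Ednrb: ctcctccgtggggaAGCACTTAgattctt
Thtpa: cgcctgtatcgagtAGCACTTAgagccca
Ddias: tgtctgatacaaaaAGCACTTAgtaactg
Os9: tcccccaacttcttAGCACTTAaccccac
Cdkn1a: accgtgggtgtcaaAGCACTTAgtgggtc
Ccng1: gtagttactgaaatAGCACTTctttaaa
Dazap2: catcacataccttcAGCACTTctcacaa
Fgf15: gagtcctttccccgGCACTTAcgtggca
Ccnd1: ccattccatttcaaAGCACTTttggtca
Pcsk1n: tgccaggggtccacAGCACTTAgccaagg
The Ednrb site starts at base 230 of a 3′UTR of 2441 nt, the Thtpa site at base 1005 of 1479 nt, the Ddias site at base 139 of 481 nt, and the Os9 site at base 261 of 597 nt. Ednrb, Thtpa, Ddias and Cdkn1a each hold 1 more match of 7 bases. A match is a description of the sequence and does not show that the site is used.

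The 7 libraries held 9008784 (WT1) to 13517860 reads (KO3) assigned to genes, and values were whole multiples of 1 read. Libraries differed along 2 axes. The first component of log2 values (40.8% of the variance) set KO3 (55.5) and WT3 (51.3) apart from KO4 (-46.0), WT1 (-28.1) and WT2 (-31.4), and it followed the transcript-length profile. The rank correlation of a library's deviation with transcript length was 0.032, -0.028, 0.476 and -0.417 in KO1 to KO4, against -0.441, -0.377 and 0.499 in WT1 to WT3. Long transcripts were thus read relatively more in KO3 and WT3. The second component (22.8%) separated the genotypes, at 40.0, 36.9, 4.70 and 2.43 in KO1 to KO4 and at -27.8, -24.4 and -31.8 in WT1 to WT3. KO4 and WT2 share a code number and a like length profile, so their difference is given beside the values of several genes and lists. The pair is 1 library against 1 and also differs in sex. Ddx3y was at 122 in KO4 and 0 in WT2, and Xist at 4.64 and 221.

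**Figure D1:**
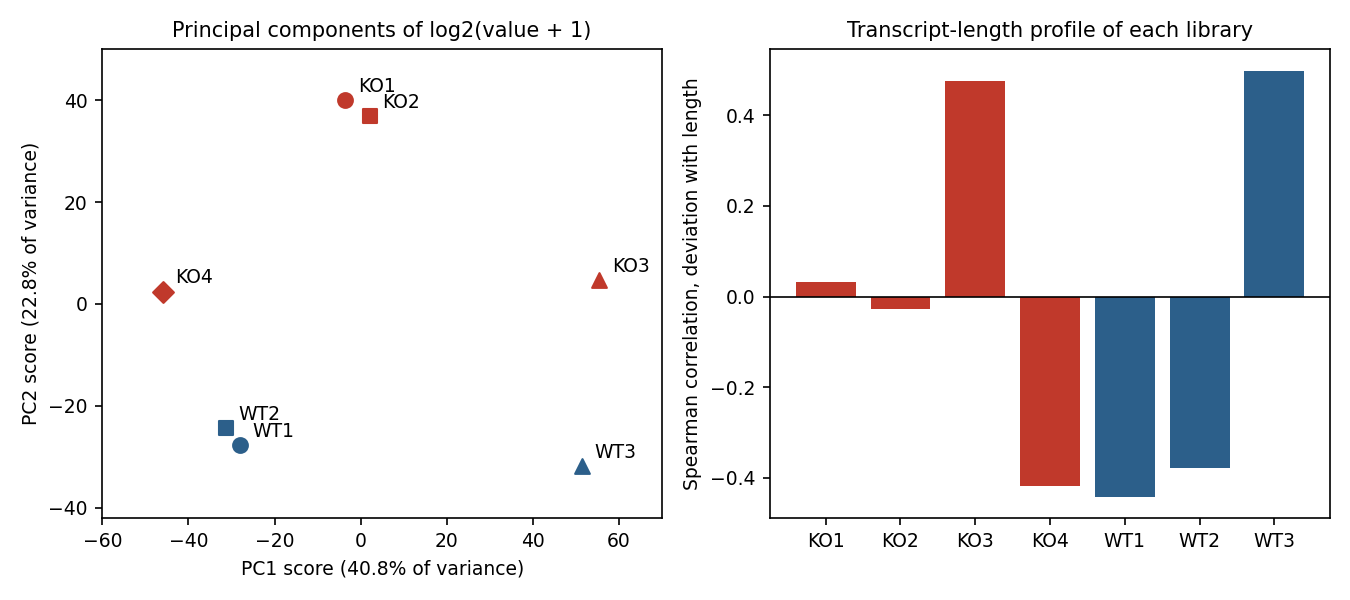
Left, scores of the 7 libraries on the first and second principal components of log2(normalised read count + 1), KO in red and WT in blue. Right, for each library the Spearman correlation over genes between the library's deviation from the gene mean and transcript length. KO3 and WT3 stand together on the first component and at positive length correlations of 0.476 and 0.499, and all KO libraries lie above all WT libraries on the second component.

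No gene passed the limma threshold (adjusted p below 0.05) in KO against WT, a share of 0.0% of 12257 genes, and the smallest adjusted p was 0.256. Before adjustment 742 genes (6.05%) had a limma p below 0.05, 385 (3.14%) with higher and 357 (2.91%) with lower levels in KO. For 801 genes (6.54%) the ranges of KO and WT lay apart, with KO above in 455 (3.71%) and below in 346 (2.82%). On the recovered reads the quasi-likelihood test of edgeR also called 0.0% (743 genes, 6.06%, before adjustment). DESeq2 on the same reads called 32 genes (0.261%), 22 higher (0.179%) and 10 lower (0.0816%), and in 29 of them the genotypes did not overlap. Fold changes were balanced, with 46.9% above 0, a median log2 fold change of -0.03, 249 genes at 1 or more (2.03%) and 231 at -1 or less (1.88%). With a median 95% interval of ±0.70 on the log2 scale, changes of less than about that size could not be told from none for the typical gene, even before adjustment. The adjusted threshold asks for more, so larger changes can miss it. Fold changes are given as KO over WT from log2(value + 1), a scale that makes differences of genes with few reads look smaller than they are, and errors of log2 fold changes are standard errors.

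Genes with higher levels in KO included the p53-induced cyclin Ccng1, the endothelin receptor Ednrb and the thiamine genes Thtpa and Slc19a2. The 12 named here as leading were chosen by the smallest limma p among genes whose genotypes did not overlap, so that their lack of overlap is not a finding. Ccng1 (cyclin G1, a cell-cycle regulator induced by p53; chromosome 11, 40748552 to 40755311, minus strand) had normalised read counts of 393, 524, 591 and 549 in KO1 to KO4, against 182, 174 and 137 in WT1 to WT3. KO1 was the lowest KO library and still stood well above WT1, the highest WT library. The log2 fold change was 1.63 ± 0.22 (limma adjusted p = 0.256, DESeq2 adjusted p = 6.4e-07). Ednrb (the endothelin B receptor of crest cells that will form pigment cells and enteric neurons; chromosome 14, 103814625 to 103844402, minus strand) had 578, 789, 454 and 381 in KO1 to KO4, against 186, 149 and 162 in WT1 to WT3. KO2 was the highest and KO4 the lowest of the KO libraries, and all WT libraries were below each of them. Its log2 fold change was 1.68 ± 0.27 (limma adjusted p = 0.256, DESeq2 adjusted p = 4.6e-05), and it was 1.35 between KO4 and WT2, the libraries of code number 169. In that same pair Ccng1 differed by 1.65. Over the 12 leading higher genes the median log2 fold change was 1.33, and the median difference between KO4 and WT2 was 1.06. KO4 had to lie above WT2 for a gene to be chosen, so the sign of this difference was fixed beforehand.

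Thtpa, which hydrolyses thiamine triphosphate, and Slc19a2, which carries thiamine into cells, were both higher in KO. Thtpa (chromosome 14, 55094784 to 55098986, plus strand) had 163, 166, 170.2 and 144 in KO1 to KO4, against 70.5, 66.3 and 72.3 in WT1 to WT3. Its spread within each genotype was small, with SDs of 11.6 in KO and 3.07 in WT, and its log2 fold change was 1.19 ± 0.23 (DESeq2 adjusted p = 0.00159). Slc19a2 had 96.4, 123, 143 and 115 in KO1 to KO4, against 25.7, 49.1 and 43 in WT1 to WT3, a log2 fold change of 1.61 ± 0.31 (DESeq2 adjusted p = 0.00206). Os9, a lectin that hands misfolded glycoproteins of the endoplasmic reticulum on for degradation (chromosome 10, 127095650 to 127121131, minus strand), had 396, 351, 381 and 270.1 in KO1 to KO4, against 125, 200.3 and 130.0 in WT1 to WT3. KO4 was the lowest KO library and was 0.43 above WT2 on the log2 scale, against 1.22 over all libraries. Ddias, a suppressor of cell death after DNA damage (chromosome 7, 92857525 to 92874247, minus strand), had 273, 346, 327 and 242 in KO1 to KO4, against 103, 119 and 161 in WT1 to WT3 (1.22 ± 0.25 on the log2 scale). Dazap2, a small adaptor protein, had 3295, 3584, 2258 and 2079.5 in KO1 to KO4, against 1173, 1379.8 and 734 in WT1 to WT3. WT3 was low for Dazap2, and KO1 and KO2 were the highest (log2 fold change 1.36 ± 0.29).

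Stmn3, a stathmin of neurons that destabilises microtubules, had 175, 254, 192 and 256 in KO1 to KO4, against 79.9, 97.1 and 62.6 in WT1 to WT3 (log2 fold change 1.45 ± 0.26). Map1b, which binds microtubules in growing axons, had 1967, 2056, 1996 and 1122 in KO1 to KO4, against 646, 812 and 969.8 in WT1 to WT3. KO4 stood apart from the other KO libraries and close to WT3, and the log2 fold change was 1.12 ± 0.26. Smarcd3, the BAF60C subunit of the BAF chromatin remodelling complex, had 147, 111, 150.3 and 125 in KO1 to KO4, against 50.1, 54.1 and 56.7 in WT1 to WT3, groups that lay well apart (log2 fold change 1.29 ± 0.25). Cep55, which acts at the midbody when daughter cells separate, averaged 347 ± 10.3 in KO and 187 ± 22.2 in WT (SD, n = 4 and 3), a 1.86-fold difference. Srxn1, an antioxidant reductase, was 2.64-fold higher without a DESeq2 call (adjusted p = 0.0521). The remaining genes that DESeq2 called higher with no overlap of the genotypes were Tnfaip1, Msl3, Idh1, Syp, Ckb, H2-Bl, Klf1 and 9530068E07Rik, with log2 fold changes of 0.80, 0.90, 0.97, 1.63, 2.13, 3.50, 3.58 and 0.79. Hoxb2, Hba-x and Hbb-bh1, also called by DESeq2, had overlapping genotypes and are described with their groups.

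Lower in KO were a phosphatase subunit, a Wnt receptor, an apical junction protein and the pluripotency factor Nanog. Ppp4r2, a regulatory subunit of protein phosphatase 4, which acts in DNA repair (chromosome 6, 100833622 to 100869934, plus strand), had 429, 349, 395 and 498 in KO1 to KO4, against 999.9, 1191 and 910.2 in WT1 to WT3. KO4 was the highest KO library and stayed far below WT3, the lowest WT library. The log2 fold change was -1.31 ± 0.20 (limma adjusted p = 0.256, DESeq2 adjusted p = 2.7e-05). Phlda1, a pleckstrin homology-like protein induced by growth factors (chromosome 10, 111506286 to 111508645, plus strand), had 519.5, 393, 670.4 and 751 in KO1 to KO4, against 1745, 1684 and 1492 in WT1 to WT3. The WT libraries lay within a narrow band and the KO libraries all below it (log2 fold change -1.53 ± 0.24, DESeq2 adjusted p = 1.0e-04). Fzd2, a Frizzled receptor for Wnt ligands (chromosome 11, 102604396 to 102608058, plus strand), had 929, 769, 909.7 and 792 in KO1 to KO4, against 1672, 1737 and 1517 in WT1 to WT3. Its KO libraries lay within a narrow band (log2 fold change -0.95 ± 0.18, DESeq2 adjusted p = 7.0e-04).

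Ccdc85c, a protein of apical junctions in the neuroepithelium, had 32.1, 23.9, 22.8 and 31.3 in KO1 to KO4, against 66.4, 88.5 and 115 in WT1 to WT3, a log2 fold change of -1.65 ± 0.32. Nanog (chromosome 6, 122707489 to 122714633, plus strand) had 36.8, 57.3, 93.8 and 32.5 in KO1 to KO4, against 184, 158 and 181 in WT1 to WT3. KO3 was the highest KO library and still held less than any WT library (log2 fold change -1.77 ± 0.37, DESeq2 adjusted p = 0.0170), and reads of Nanog pseudogenes cannot be told apart from those of the gene at this level. Zswim6, a zinc-finger protein, averaged 65 ± 10.2 in KO and 144 ± 19.4 in WT, and Pcsk1n, the precursor of an inhibitor of prohormone convertase, averaged 105 ± 52.8 in KO and 276 ± 21.9 in WT (SD, n = 4 and 3). Atxn2l, Pkdcc and Cdc42ep5 were 2.05-fold, 1.78-fold and 1.96-fold lower without a DESeq2 call, and Vstm2l, an immunoglobulin-domain protein, was 3.44-fold lower with one (adjusted p = 0.0462). Lars2 and Mir6236 were 3.04-fold and 3.0-fold lower. Their values are uncertain, because both annotations contain sequence like ribosomal RNA, and WT2, with 6271 for Lars2 and 217 for Mir6236, was the highest library for both. The uncharacterised A930005H10Rik was 2.66-fold lower. Over the 12 leading lower genes the median log2 fold change was -1.42, and the median difference between KO4 and WT2 was -1.21, with the sign again fixed by the choice of genes.

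**Figure D2:**
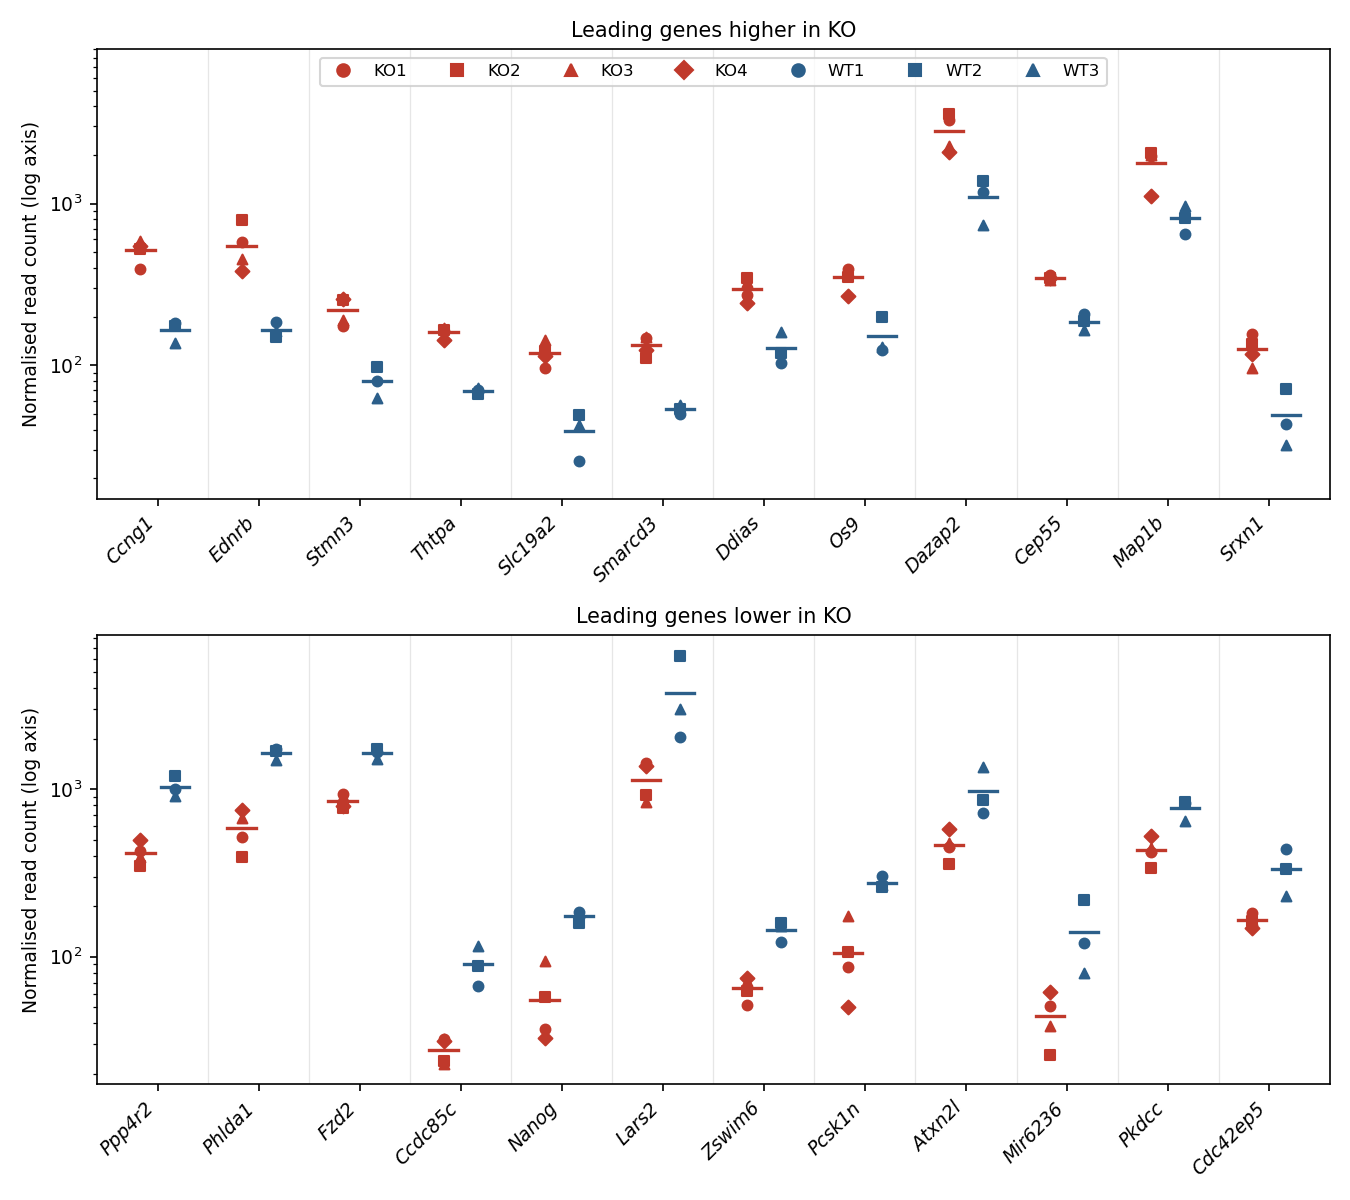
Normalised read counts (log axis) of the 12 leading genes higher and the 12 leading genes lower in KO, each gene with its KO libraries (red) left of its WT libraries (blue). Symbols mark libraries and horizontal bars the group means. In all 24 genes every KO library lies on one side of every WT library, which was a condition for choosing them, and KO4 is close to the WT libraries for Map1b.

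Genes with a match to the miR-302 seed in the 3′UTR were shifted toward higher levels in KO, and more so with 8mer than with 7mer matches. The 423 tested genes with an 8mer match had a median log2 fold change of 0.12, and 64.5% of them were above 0. The 2038 genes with a 7mer and no 8mer match had a median of 0.04, and the 9239 genes with no match a median of -0.04 (45.2% above 0). A limma p below 0.05 with higher levels in KO was found for 38 of the 8mer genes (8.98%), 83 of the 7mer genes (4.07%) and 261 of the genes with no match (2.82%). With lower levels in KO the counts were 7 (1.65%), 44 (2.16%) and 273 (2.95%). Genes with 8mer matches to other microRNA seeds had medians near that of all genes, -0.02 for let-7a (451 genes), -0.01 for miR-17 (532), 0.0053 for miR-367 (330) and -0.0022 for miR-9 (547). A miR-17 8mer differs from a miR-302 8mer although the seeds overlap, and its genes had 3.01% higher and 3.57% lower at a p below 0.05.

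Longer 3′UTRs hold more matches, and the median 3′UTR was 3006 nt in the 8mer genes and 967 nt in those without a match. Among genes with a 3′UTR of 1500 to 4000 nt, 197 with an 8mer match had a median of 0.12 and 2677 without a match a median of -0.0024, and 9.64% against 2.91% were higher with a p below 0.05. The shift was not the same in every library. Relative to the WT mean, 8mer genes exceeded genes without a match by 0.175, 0.216, 0.264 and 0.026 in KO1 to KO4 on the mean log2 scale, against -0.096, -0.049 and 0.145 in WT1 to WT3. KO4 was thus below WT3, so the genotypes overlapped. KO1, KO2 and KO3 exceeded every WT library, and KO4 exceeded WT1 and WT2 only. Whether the length profiles of the libraries account for the overlap was not tested. Between KO4 and WT2 the median difference was 0.043 for 8mer genes and -0.032 for genes with no match.

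Of the 22 genes that DESeq2 called higher, 4 had an 8mer match (18.2%, against 3.62% of all tested genes with an annotated 3′UTR), namely Ednrb, Thtpa, Ddias and Os9, whose sites are printed above. A further 7 had a 7mer match (31.8%, against 17.4%), among them Ccng1, Dazap2, Slc19a2 and Tnfaip1. Of the 7 searchable genes that DESeq2 called lower, 0 had an 8mer match and 1, Ppp4r2, a 7mer match. After these, the 8mer genes with the smallest limma p-values were Gpkow, a protein of the spliceosome, at 359.7, 413, 436 and 297 in KO1 to KO4, against 232, 181 and 186 in WT1 to WT3 (log2 fold change 0.91 ± 0.22), and Rnf20, the ubiquitin ligase of histone H2B, at 400.4, 395, 506 and 330.4 in KO1 to KO4, against 180.2, 236 and 248 in WT1 to WT3 (0.88 ± 0.23). For both, all KO libraries exceeded all WT libraries. Opposite in sign, despite an 8mer match, were Pcsk1n (-1.53), Hnrnpul2 (-0.94), Uxs1 (-0.74), Foxk1 (-0.82), Stmn2 (-0.51) and Leprotl1 (-0.61).

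**Figure D3:**
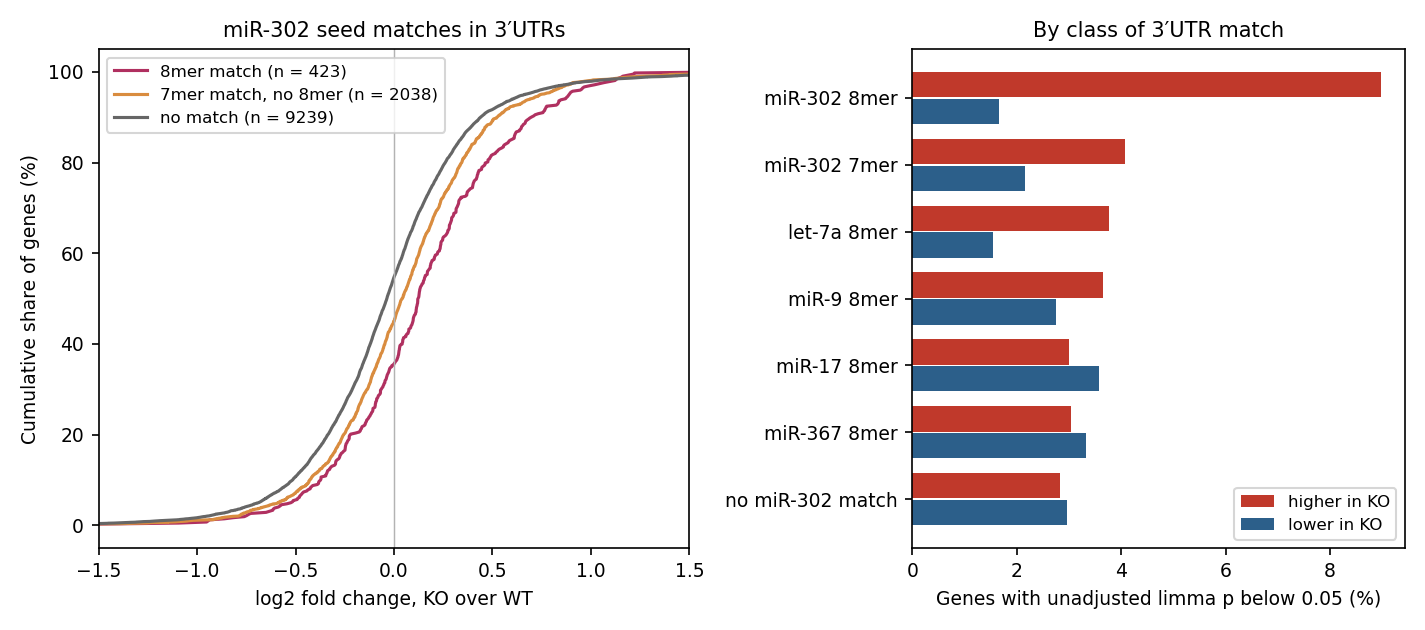
Left, cumulative share of genes (%) against log2 fold change, KO over WT, for genes whose 3′UTR holds an 8mer for miR-302, a 7mer only, or no match. Right, share of genes (%) with an unadjusted limma p below 0.05, higher (red) or lower (blue) in KO, by class of match, with 8mers of other microRNAs beside them. The 8mer curve lies to the right of the others, and 8.98% of its genes are higher against 1.65% lower.

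Among 25 tested genes reported as targets of the miR-302 family, 17 had a positive log2 fold change, with a median of 0.28 (0.14 without WT3). A limma p below 0.05 was found for 6 higher (24%, against 3.14% of all genes) and 2 lower in KO (8.0%, against 2.91%). This list and those that follow were written with earlier results of these data known. A share above that of all genes may therefore come from the choice of members and is not independent evidence. Fgf15, the growth factor of the early neural tube, had 819.7, 1953, 1773 and 1359.7 in KO1 to KO4, against 748, 775 and 381 in WT1 to WT3. KO1 was close to the WT libraries and the other KO libraries were well above them (log2 fold change 1.21 ± 0.35, 95% interval 0.44 to 1.98). Ccnd1, cyclin D1, had 1395, 2042, 1262 and 1122 in KO1 to KO4, against 837, 861 and 681 in WT1 to WT3 (0.84 ± 0.24). Meis1, a partner of Hox proteins, had 337, 205, 168 and 227 in KO1 to KO4, against 56.9, 139 and 114 in WT1 to WT3 (1.22 ± 0.35). For all of these and for Dazap2 the genotypes did not overlap. The other two higher were Arid4a (0.67) and Suv39h1, a histone H3 methyltransferase (0.47), and the lower were Bmf, a BH3-only cell death gene (-0.92), and Dazap1 (-0.63). Cdkn1a, the p21 inhibitor of cyclin-dependent kinases with an 8mer site, had 136, 233, 95.6 and 249 in KO1 to KO4, against 82.6, 168 and 28.4 in WT1 to WT3. WT2 lay above KO1 and KO3, so the genotypes overlapped, and the log2 fold change was 1.16 ± 0.55 (95% interval -0.07 to 2.39).

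Among cell-cycle genes, Ccnd1, Cdk6, E2f2 and Prc1 were higher in KO before adjustment. Of 27 tested regulators of the G1 to S transition (median 0.09), 3 were higher with a limma p below 0.05 (11.1%, against 3.14% of all genes) and 1 lower (3.70%, against 2.91%). These were Ccnd1, Cdk6, the kinase partner of cyclin D (51.7, 56.2, 57.7 and 35.9 in KO1 to KO4, against 24.4, 17.2 and 24.4 in WT1 to WT3, log2 fold change 1.15 ± 0.34), and E2f2 (0.83), and on the other side E2f3 (-0.51). Cdk6 and E2f2 both hold an 8mer match. Of 38 S-phase genes (median -0.02) 0 reached that p, with Cdc6, which licenses origins, leading at 0.39. Of 32 mitosis genes (median 0.08) 1 did (3.12%, near the 3.14% of all genes), Prc1, an organiser of the central spindle, at 1557, 1603, 1525 and 1089.6 in KO1 to KO4, against 729, 1007 and 854 in WT1 to WT3 (0.74 ± 0.22), where KO4 was nearest to WT.

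The p53 list, p53 and genes it regulates, had 5 of 32 tested genes higher (15.6%, against 3.14% of all genes) and 0 lower at a limma p below 0.05, and a median of 0.17 that ran from 0.12 to 0.32 with single libraries left out. Besides Ccng1 and Ddias these were Plk2, a kinase of centriole duplication, at 187, 109, 139 and 101 in KO1 to KO4, against 37.9, 87.2 and 44 in WT1 to WT3 (log2 fold change 1.29 ± 0.36), Eda2r, a receptor of the TNF receptor family, at 28.2, 33.3, 25.3 and 23.2 in KO1 to KO4, against 8.13, 20.9 and 3.91 in WT1 to WT3 (1.51 ± 0.52), and Btg2, an antiproliferative gene (0.64 ± 0.25). WT2 was the highest WT library for Plk2 and Eda2r, and no WT library reached a KO library for either. Among 27 genes of cell death (median -0.06), only Bmf reached a p below 0.05 (3.70%, against 2.91% of all genes lower). Bmf was lower in KO, at 42.3, 48.9, 71.6 and 68.4 in KO1 to KO4, against 86.7, 111 and 129 in WT1 to WT3.

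Transcription factors that define neural crest did not differ between genotypes beyond the spread between libraries. All 10 fixed crest markers were detected in all 7 libraries, and 0 of them had a limma p below 0.05 (median log2 fold change -0.09). Sox10, the factor of crest that has begun to migrate, had 704, 690.1, 880.3 and 932 in KO1 to KO4, against 1017, 973 and 662 in WT1 to WT3 (log2 fold change -0.13, 95% interval -0.63 to 0.37). Foxd3 had 94, 154, 242 and 156 in KO1 to KO4, against 229, 172 and 188 in WT1 to WT3 (-0.35, -1.04 to 0.35), and Pax3 had 362, 486, 526 and 369 in KO1 to KO4, against 348, 383 and 328 in WT1 to WT3 (0.28, -0.19 to 0.76). For each of these the genotypes overlapped, and the intervals leave room for changes of up to about the size of their bounds. Sox9, reported as a target of miR-302 although its 3′UTR held no 7mer or 8mer match, had 845, 812, 2162 and 741 in KO1 to KO4, against 1116, 799 and 1362 in WT1 to WT3. KO3 was far above the remaining KO libraries, and the sign of its log2 fold change of -0.06 depended on the libraries used. Tfap2a was lower on average (-0.53, -1.22 to 0.17) with overlap.

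Within the wider lists a few crest genes had a limma p below 0.05. Of 13 genes of the neural plate border (median 0.15), 1 was higher at that p (7.69%, against 3.14% of all genes). This was Tfap2c, an AP-2 factor of border and surface ectoderm, at 259, 362, 644 and 309 in KO1 to KO4, against 111, 210.1 and 223 in WT1 to WT3 (log2 fold change 1.09 ± 0.35), with KO3 the highest. Of 16 specifiers (median -0.07) 1 was higher (6.25%, against 3.14%). This was Snai2, a repressor of cadherins, at 74.4, 36.4, 30.1 and 56.8 in KO1 to KO4, against 21.7, 31.9 and 16.6 in WT1 to WT3 (1.01 ± 0.41), with overlap of KO3 and WT2. Snai1 had -0.50. Of 24 genes of delamination and adhesion (median -0.01) 3 were higher (12.5%, against 3.14%) and 1 lower (4.17%, against 2.91%). Zeb1, a driver of the epithelial to mesenchymal transition, had 165, 163, 115 and 74.2 in KO1 to KO4, against 32.5, 62.7 and 49.9 in WT1 to WT3 (1.38 ± 0.36), and the genotypes did not overlap. Mmp14, a membrane-bound matrix metalloproteinase, was 1.88-fold and Cdh6, cadherin 6, 1.75-fold higher, both without overlap, while Mmp15 was 1.79-fold lower.

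Among receptors and guidance molecules few genes besides Ednrb differed. Of 18 tested receptors (median 0.21) Ednrb alone had a limma p below 0.05 (5.56%, against 3.14% of all genes). The endothelin A receptor Ednra was next, at 294, 237, 245 and 195 in KO1 to KO4, against 184, 145 and 185 in WT1 to WT3, with KO4 only just above WT3 (log2 fold change 0.49 ± 0.23). Pdgfra (-0.74) and Ntrk3 (-0.95) had negative values with overlap. Of 36 guidance genes (median -0.05) 2 were higher at that p (5.56%, against 3.14% of all genes). Slit1, a repellent for Robo receptors, had 38.4, 21.9, 34.9 and 20.9 in KO1 to KO4, against 5.42, 2.46 and 13.7 in WT1 to WT3 (2.07 ± 0.55), and Nrp1, the receptor of class 3 semaphorins, had 158, 184, 171 and 119 in KO1 to KO4, against 85.4, 101 and 83.1 in WT1 to WT3 (0.80 ± 0.25), each with KO above WT throughout. Slit1 was close to the read limit in WT2. Ephb2 and Ephb1, receptors of ephrins, were -0.67 and -0.77.

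Hoxb2, Hoxa2, Egr2 and Meis1 of the hindbrain list were higher in KO before adjustment, with WT2 reaching into the KO range for Hoxb2, Hoxa2 and Egr2. Of 17 tested hindbrain genes 6 were higher with a limma p below 0.05 (35.3%, against 3.14% of all genes) and 0 lower, and 13 had positive values, with a median of 0.64. The members were chosen with earlier results of these data known. Hoxb2, a Hox gene of the hindbrain and its crest, had 346, 214, 71.6 and 316 in KO1 to KO4, against 29.8, 86 and 33.2 in WT1 to WT3 (log2 fold change 2.18 ± 0.56, DESeq2 adjusted p = 0.0170). KO3 lay below WT2, and the other KO libraries above every WT library. Hoxa2, which patterns crest of the second arch, had 264, 163, 46.3 and 177 in KO1 to KO4, against 10.8, 78.6 and 22.5 in WT1 to WT3 (2.30 ± 0.69), and again only KO3 fell below WT2. Egr2, the Krox20 factor of rhombomeres 3 and 5, had 65.8, 72.9, 75.2 and 19.7 in KO1 to KO4, against 4.06, 40.5 and 2.93 in WT1 to WT3 (2.49 ± 0.80), where KO4 was below WT2. Hoxb3 (1.52) was higher on average at few reads, and Meis1 was the one member with no overlap and a p below 0.05. The mean log2 level of the list was 7.59, 7.27, 6.73 and 7.52 in KO1 to KO4, against 6.22, 7.09 and 6.29 in WT1 to WT3. WT2 was thus the highest WT library and KO3 the lowest KO library, and the share of cells from each level of the body axis was not measured. Without single libraries the median of the list was 0.33 (KO1), 0.63 (KO2), 1.18 (KO3), 0.28 (KO4), 0.50 (WT1), 0.98 (WT2) and 0.26 (WT3), and for members with a mean of 100 or more it was 0.17.

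Markers of the midbrain and of neural tube progenitors stood on both sides of 0. Of 19 genes of the midbrain and isthmus (median -0.06), Fgf15 and Lmx1a, a roof plate factor at 65, 64.5, 87.8 and 49.8 in KO1 to KO4, against 32.5, 38.1 and 41.1 in WT1 to WT3 (log2 fold change 0.81 ± 0.31), were higher with a limma p below 0.05. Sp8, a zinc-finger factor of the isthmus, was lower at 43.9, 66.6, 78.8 and 58 in KO1 to KO4, against 117, 111 and 102 in WT1 to WT3 (-0.85 ± 0.28), and none of these overlapped between genotypes. The 2 higher genes are 10.5% and the 1 lower 5.26% of this list, against 3.14% and 2.91% of all genes. Of 19 progenitor genes (median 0.04) 3 were higher and 3 lower (15.8% each, against 3.14% and 2.91% of all genes). Higher were Olig3, a factor of dorsal progenitors, at 46.2, 19.8, 21 and 20.9 in KO1 to KO4, against 1.35, 19.7 and 4.89 in WT1 to WT3, Dbx1, of intermediate progenitors, at 174, 57.3, 16.2 and 119 in KO1 to KO4, against 16.3, 33.2 and 3.91 in WT1 to WT3, and nestin, Nes (0.89). Olig3 in WT2 was nearly as high as in most KO libraries, and Dbx1 in KO3 was as low as in WT1. Lower were the neural factors Sox3, at 172, 113, 316 and 476 in KO1 to KO4, against 459, 708 and 585 in WT1 to WT3 (-1.30 ± 0.43), Sox21 (-0.51) and Pax6 (-0.76), with KO4 or KO1 inside the WT range. Of 10 dorsal neural tube markers, which include Wnt1 itself (0.13, 95% interval -0.64 to 0.91), 1 was higher with a p below 0.05 (10%, against 3.14% of all genes). The summed level of these markers was 1931 to 2537 in KO and 1722 to 2309.9 in WT.

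Neurogenic genes gave a similar mixture. Of 18 tested (median 0.18) Stmn3 and Neurog2, the proneural factor, were higher and Stmn2 lower with a limma p below 0.05. These are 11.1% and 5.56%, against 3.14% and 2.91% of all genes. Neurog2 had 32.1, 27.1, 51.7 and 91.6 in KO1 to KO4, against 14.9, 23.3 and 11.7 in WT1 to WT3 (log2 fold change 1.44 ± 0.48), with KO4 the highest and no overlap. Stmn2, with an 8mer match, had 157, 203, 188 and 169 in KO1 to KO4, against 282, 259 and 228 in WT1 to WT3 (-0.51 ± 0.21), so the stathmins Stmn3 and Stmn2 differed in sign.

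The arch mesenchyme list, genes of the connective tissue that crest forms in the face, included 7 with higher levels in KO before adjustment, at few reads, and 3 of these had KO above WT throughout. Of 20 tested 7 were higher with a limma p below 0.05 (35%, against 3.14% of all genes) and 1 lower (5%, against 2.91%). The members were chosen with earlier results of these data known. The median was 0.77. It was 0.0026 for the members with a mean of 100 or more, so the shift lay in the members with few reads. Without WT3 the median of all 20 was 0.31, without KO1 0.32 and without KO4 0.48. Postn, a matrix protein, had 94.8, 15.6, 63.7 and 39.4 in KO1 to KO4, against 8.13, 14.7 and 1.96 in WT1 to WT3 (log2 fold change 2.59 ± 0.70), with KO2 next to WT2. Foxc2, a forkhead factor of head mesenchyme, had 36, 20.8, 26.5 and 11.6 in KO1 to KO4, against 10.8, 6.14 and 2.93 in WT1 to WT3 (1.73 ± 0.55), and Lum, a proteoglycan, had 102, 27.1, 16.2 and 20.9 in KO1 to KO4, against 14.9, 8.60 and 1.96 in WT1 to WT3 (2.07 ± 0.73). KO1 was the highest library for all 3. Prrx1 (1.49), Dlx1 (2.32), Twist2 (1.63) and Col3a1 (2.07) were also higher on average, with overlap of the genotypes. Col1a2, a chain of type I collagen, was lower at 147, 138, 179 and 125 in KO1 to KO4, against 243, 247 and 269.8 in WT1 to WT3 (-0.79 ± 0.22). Among 26 matrix genes (median -0.08) Nid1 (1.56) and Col5a2 (0.89) were among the 3 that were higher, and Col1a2 among the 2 that were lower, with a limma p below 0.05. These counts are 11.5% and 7.69%, against 3.14% and 2.91% of all genes.

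**Figure D4:**
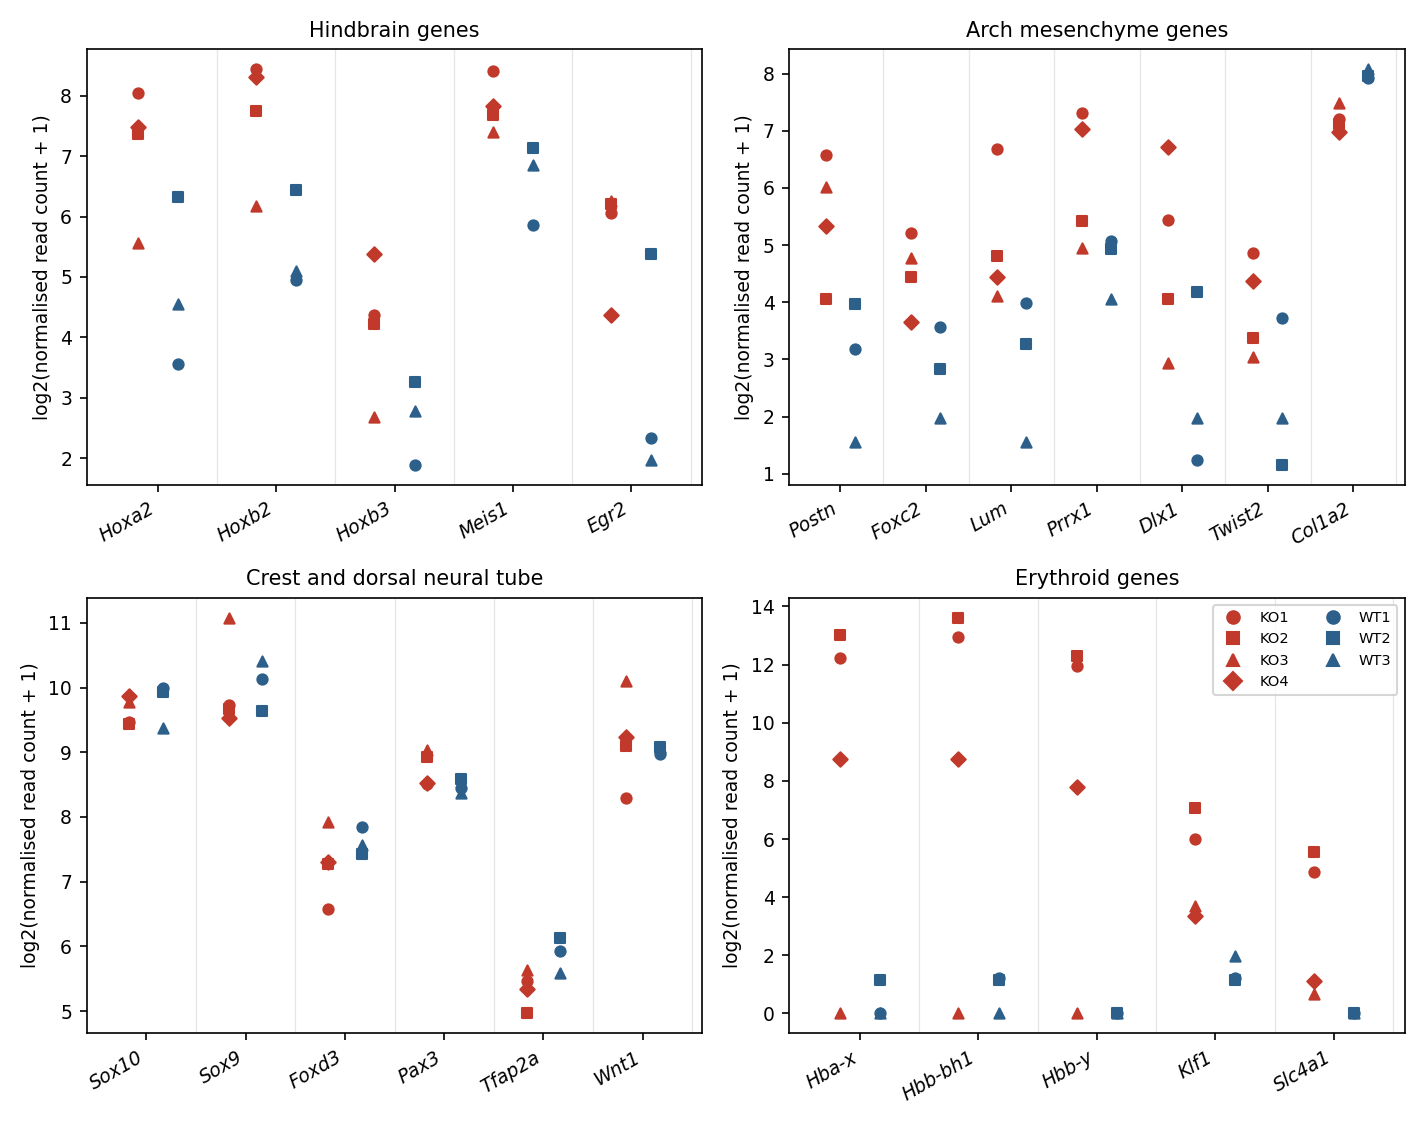
Level per library as log2(normalised read count + 1) for genes of the hindbrain, of arch mesenchyme, of crest and dorsal neural tube, and of red blood cells, with KO (red) left of WT (blue) for each gene. Crest and dorsal neural tube genes overlap between genotypes, WT2 is the highest WT library for Hoxa2, Hoxb2 and Egr2, and the embryonic globins are high in KO1, KO2 and KO4 and near 0 elsewhere.

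Among signalling genes the Wnt receptor Fzd2 and the FGF-induced Phlda1, both described above, had DESeq2 calls. Of 47 Wnt pathway genes (median -0.17, or 0.07 without WT3) 1 was higher (2.13%) and 2 lower (4.26%) with a limma p below 0.05, near the shares of all genes. The lower were the receptors Fzd2 and Fzd7, the second at 380.1, 279, 517 and 272 in KO1 to KO4, against 394, 537 and 914 in WT1 to WT3 (log2 fold change -0.72 ± 0.33), with overlap. Rspo3, which enhances Wnt signals, had 63.5, 40.6, 13.2 and 123 in KO1 to KO4, against 1.35, 25.8 and 3.91 in WT1 to WT3 (2.78 ± 0.89). It was higher on average, and KO3 lay below WT2. Among 13 target genes (median -0.21) Axin2, the feedback inhibitor, was lower at 38.4, 74.9, 117 and 78.8 in KO1 to KO4, against 146, 154 and 103 in WT1 to WT3 (-0.87 ± 0.37), and Ccnd1 higher.

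Of 34 genes of the BMP and TGF-beta pathways (median 0.15) 1 was lower with a limma p below 0.05 (2.94%, near the 2.91% of all genes). This was the activin receptor Acvr2b, at 1313, 1173, 1206 and 2166 in KO1 to KO4, against 2217, 2322 and 2326 in WT1 to WT3 (log2 fold change -0.69 ± 0.24). KO4 was almost at the WT level, which was nearly constant. Of 24 FGF genes (median -0.000674) Fgf15 and Dusp6, a phosphatase that restrains ERK (0.49 ± 0.21), were higher, and Phlda1 and Fgf5 lower. That is 8.33% on either side, against 3.14% and 2.91% of all genes. Fgf5, a factor of the epiblast, had 5.49, 3.12, 12 and 1.16 in KO1 to KO4, against 17.6, 27 and 37.1 in WT1 to WT3 (-2.37 ± 0.65), few reads in every KO library. In the Notch list (21 genes, median 0.04) Nrarp (1.15) and Hes6 (0.72) were higher and Notch2 (-0.94) lower (9.52% and 4.76%, against 3.14% and 2.91% of all genes). Of 15 retinoic acid genes (median -0.08) Aldh1a2, which makes retinoic acid, was lower on average at 65, 127, 70.3 and 16.2 in KO1 to KO4, against 146, 93.4 and 371 in WT1 to WT3 (-1.61 ± 0.65). WT3 was far above the other WT libraries, and KO2 lay above WT2, so the genotypes overlapped. In the Hedgehog list (15 genes, median -0.25) 0 genes had a p below 0.05. Growth and Hippo pathway genes (31 tested, median -0.10) had 3 lower (9.68%, against 2.91% of all genes) and 0 higher. The lower were the coactivator Yap1, at 356, 297, 479.8 and 430.1 in KO1 to KO4, against 626, 550.4 and 656 in WT1 to WT3 (-0.66 ± 0.22), its partner Tead2 (-0.62) and the insulin receptor substrate Irs2 (-0.46).

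Transcripts of primitive red blood cells were present in 3 KO libraries. The embryonic globin Hba-x had 4773, 8295, 0 and 427 in KO1 to KO4, against 0, 1.23 and 0 in WT1 to WT3, and Hbb-bh1 had 7994, 12529, 0 and 428 in KO1 to KO4, against 1.35, 1.23 and 0 in WT1 to WT3. KO1 and KO2, which share code number 128, held most of it, KO4 less, and KO3 none. Klf1, the erythroid factor, had 63.5, 132, 12 and 9.27 in KO1 to KO4, against 1.35, 1.23 and 2.93 in WT1 to WT3. Of 9 tested erythroid markers (14 listed) 5 were higher with a limma p below 0.05 (55.6%, against 3.14% of all genes). The summed level of the list was 16985, 26458, 38.5 and 1104 in KO1 to KO4, against 22.1 to 42 in WT. The adult globins Hba-a1, Hba-a2, Hbb-bs and Hbb-bt were at 0 in all 7. Ccng1, Ednrb, Thtpa, Slc19a2, Smarcd3, Ppp4r2, Phlda1 and Fzd2 differed to the same side in KO3, which held no globin reads. A lack of overlap was a condition for choosing these genes, so the side of KO3 was fixed beforehand. What erythroid RNA adds to other values in KO1 and KO2 was not tested.

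Markers of other cell types did not separate the genotypes as sums, but a sum follows its most abundant members and can hide members that differ. Endothelial markers (12 listed) summed to 107 to 600.2 in KO and 138 to 317 in WT, and 0 had a limma p below 0.05. Surface ectoderm (13 listed) summed to 3902 to 9381 in KO and 5435 to 8256 in WT, with Tfap2c and Trp63 (1.11) higher and Cldn7 (-0.94) lower at that p. These are 18.2% and 9.09% of the tested members, against 3.14% and 2.91% of all genes. Paraxial mesoderm (12) had 118 to 288 in KO and 124 to 201 in WT, with Msgn1 and Myf5 at 0. Foxc2 was higher at that p (16.7% of the tested members, against 3.14% of all genes). Cardiac markers (10) had 71.9 to 1355 in KO and 71.4 to 537 in WT, the most in KO3 and then WT1. Endoderm (12) had 571 to 1296 in KO and 1055 to 1779 in WT, and germ cell markers (9) 472 to 1129 in KO and 465 to 807 in WT. Most of the endoderm sum was Epcam, also listed for surface ectoderm, at 903 in KO1 and 1516 in WT1. Within the germ cell list Nanog was lower and Tfap2c higher in KO, each without overlap, so their differences offset one another in the sum. Myeloid markers (10) stayed within 9.37 to 74 in KO and 6.84 to 20.3 in WT, with Ptprc at 0, and trophoblast markers (12) within 16.2 to 86.6 in KO and 22.5 to 44.7 in WT. In sorted bulk samples fewer cells of a type cannot be told apart from less RNA per cell. Xist reads with no Ddx3y reads were found in KO2, KO3, WT2 and WT3, and Ddx3y reads in KO1, KO4 and WT1, so both sexes occur in both genotypes.

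Immediate early genes, which are switched on by growth factors and by handling of tissue, had higher mean log2 levels in KO1, KO2 and KO3 than in any WT library. Of 19 tested 4 were higher with a limma p below 0.05 (21.1%, against 3.14% of all genes) and 0 lower, with 16 positive values and a median of 0.45 (0.29 without WT3). Egr1 had 58, 71.8, 55.9 and 17.4 in KO1 to KO4, against 10.8, 14.7 and 12.7 in WT1 to WT3 (log2 fold change 1.75 ± 0.50), and Jun had 535, 378, 230.3 and 128 in KO1 to KO4, against 97.5, 109 and 99.7 in WT1 to WT3 (1.44 ± 0.42). KO4 was the KO library nearest to WT for both, and Egr2 and Btg2, named above, were the other two. The mean log2 level of the list was 7.10, 7.13, 7.06 and 6.63 in KO1 to KO4, against 6.41, 6.82 and 6.05 in WT1 to WT3, so that KO4 lay below WT2. Between KO4 and WT2 the median of the list was -0.02. Class I histocompatibility genes differed in sign. H2-Bl had 86.2, 127, 76.4 and 6.96 in KO1 to KO4, against 4.06, 3.69 and 2.93 in WT1 to WT3, and H2-D1 had 128, 213, 190.0 and 134 in KO1 to KO4, against 98.9, 114 and 62.6 in WT1 to WT3, whereas H2-T23 had 67.4, 92.6, 25.3 and 110.1 in KO1 to KO4, against 625, 414 and 49.9 in WT1 to WT3. These genes are near copies of one another, so reads may be shared between them. Ifitm1, an interferon-induced membrane protein, was 2.74-fold lower with no overlap.

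Chromatin genes varied one by one. Of 42 remodellers (median -0.10) 2 were higher and 2 lower with a limma p below 0.05. Each is 4.76%, near the 3.14% and 2.91% of all genes. Within the BAF complex the subunit Smarcd3 was higher and its alternative Smarcd1 lower, the second at 736, 862, 688 and 1167 in KO1 to KO4, against 1041, 1229 and 1631 in WT1 to WT3 (log2 fold change -0.60 ± 0.25), with KO4 inside the WT range. Arid1a, the large BAF subunit, had 234, 231, 314 and 337 in KO1 to KO4, against 492, 466 and 417 in WT1 to WT3 (-0.73 ± 0.22) with no overlap, and Baz1a, of the ISWI family, was higher (0.67 ± 0.23). Of 39 Polycomb, DNA methylation and histone-modifying genes (median -0.06) Bmi1, a Polycomb subunit, had 561, 552, 391 and 473 in KO1 to KO4, against 247, 279 and 366 in WT1 to WT3 (0.74 ± 0.23). Suv39h1 was higher as well, and Dnmt3b, a de novo DNA methyltransferase of the epiblast, was lower at 739, 1092, 1679 and 603 in KO1 to KO4, against 1643, 1165 and 3545 in WT1 to WT3 (-0.99 ± 0.42), with overlap and with KO3 and WT3 high. The 2 higher and 1 lower genes are 5.13% and 2.56% of this list, against 3.14% and 2.91% of all genes.

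All 5 replication-dependent linker histone genes had lower levels in KO with a limma p below 0.05, out of 22 histone and HMG genes (median -0.31, from -0.54 to -0.09 with single libraries left out, 22.7% lower, against 2.91% of all genes). Hist1h1e had 125, 134, 357 and 410.3 in KO1 to KO4, against 558, 452 and 786 in WT1 to WT3 (log2 fold change -1.38 ± 0.44), and Hist1h1b had 181, 209, 275 and 575 in KO1 to KO4, against 570.4, 501 and 677 in WT1 to WT3 (-1.05 ± 0.36). KO4 was at the WT level for Hist1h1b. Hist1h1d (-1.07), Hist1h1c (-0.86) and Hist1h1a (-0.73) followed. Their transcripts mostly end without a poly(A) tail, and the library kit primes on poly(A) tails, so only part of them is counted. Pluripotency and epiblast genes (15 tested, median -0.29) had 3 lower (20%, against 2.91% of all genes) and 0 higher, namely Nanog, Fgf5 and Dnmt3b. The median was 0.037 without KO4 and -0.024 without WT3. Pou5f1, at 0, 21.9, 67.3 and 2.32 in KO1 to KO4, against 28.5, 12.3 and 29.3 in WT1 to WT3, varied too widely to compare. Of 25 imprinted genes (median 0.06) 1 was lower (4%, against 2.91% of all genes). This was the noncoding Mirg, at 7.05, 6.25, 6.61 and 4.64 in KO1 to KO4, against 21.7, 14.7 and 15.6 in WT1 to WT3 (-1.36 ± 0.45), with no overlap at few reads.

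Genes for ribosomal proteins were highest in libraries rich in short transcripts, in both genotypes. All 47 tested ribosomal protein genes had negative log2 fold changes, with a median of -0.45 (from -0.79 to -0.24 with single libraries left out). Of them 3 had a limma p below 0.05 (6.38%, against 2.91% of all genes lower). Their mean log2 level was 13.38, 13.31, 12.66 and 13.77 in KO1 to KO4, against 14.12, 14.04 and 13.05 in WT1 to WT3. WT1, WT2 and KO4 were the highest and KO3 the lowest, so the genotypes overlapped. With the length and GC trend of each library removed the median was -0.28. Rplp2, for example, had 9131, 7661, 5714 and 16191 in KO1 to KO4, against 21749, 21484 and 11551 in WT1 to WT3. Of 49 nuclear genes of oxidative phosphorylation (median -0.21) 0 had a p below 0.05, the median was 0.063 without KO3, and mitochondrial genes were not analysed here. Their median was -0.08 with the trend removed.

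Of 33 tested genes of sterol and fatty acid synthesis 23 had log2 fold changes above 0 (69.7%, against 46.9% of all genes), with a median of 0.19, and 3 were higher with a limma p below 0.05 (9.09%, against 3.14%). These were Elovl6, a fatty acid elongase, at 466, 502, 401 and 369.8 in KO1 to KO4, against 261, 331 and 220.0 in WT1 to WT3 (log2 fold change 0.69 ± 0.22), Hsd17b7 (0.84) and Lss (0.47), both of cholesterol synthesis. Elovl6 did not overlap between genotypes. Of 37 tRNA synthetases 28 were above 0 (75.7%; median 0.15), 0 with higher levels reached a p below 0.05, and Lars2 alone was lower.

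**Figure D5:**
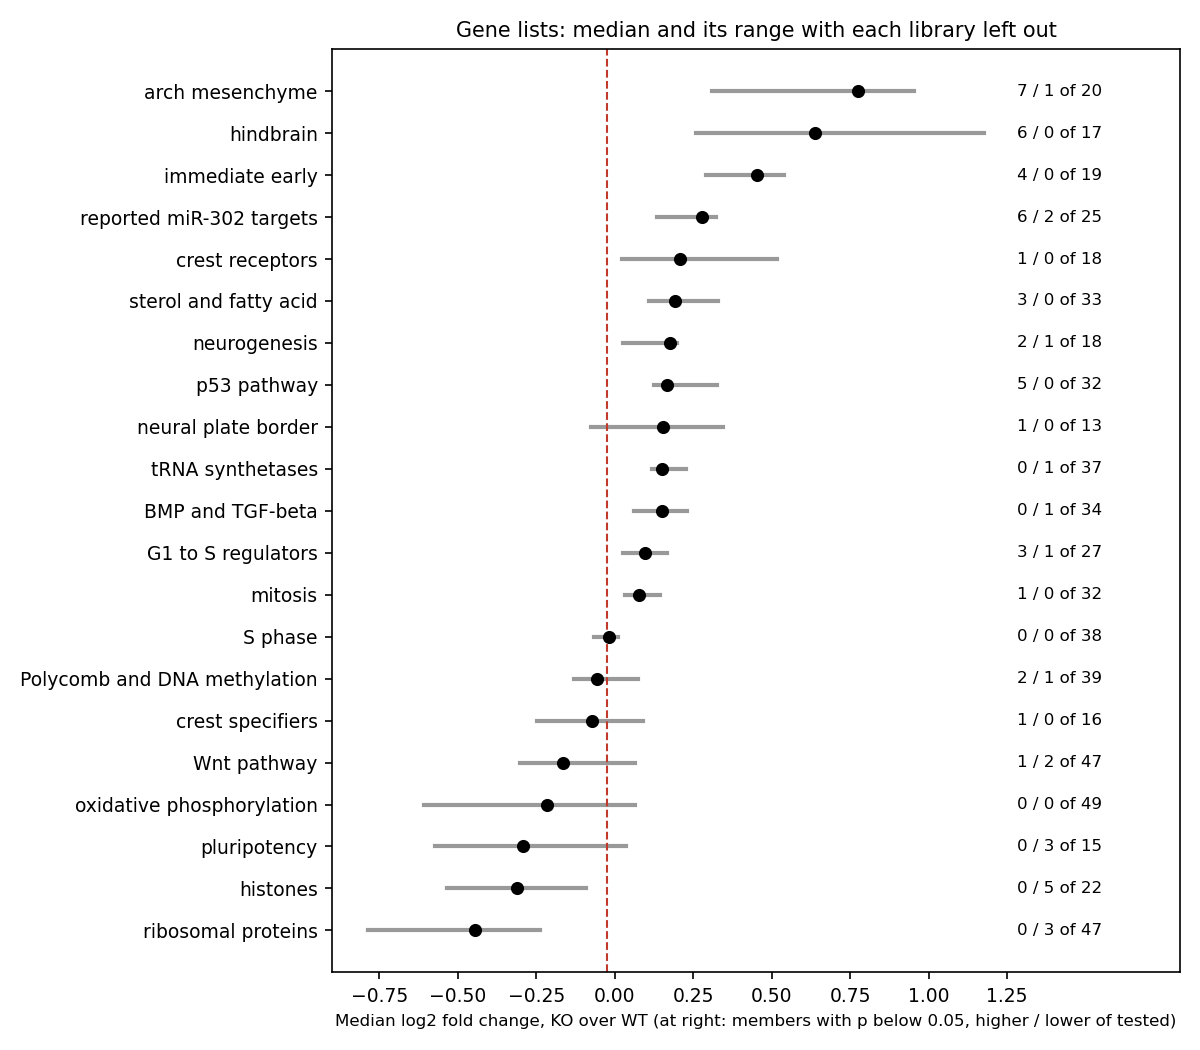
Median log2 fold change, KO over WT, of the tested members of 21 gene lists (dots), the range of that median with each library left out in turn (grey lines) and the median of all genes (dashed line, -0.03). Numbers at the right give members with an unadjusted limma p below 0.05, higher and lower in KO, of those tested. Arch mesenchyme (0.77) and hindbrain (0.64) have the highest medians and ribosomal proteins (-0.45) the lowest. The lists were written with earlier results of these data known.

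The miR-302 precursors gave almost no reads in these libraries. The library kit primes on poly(A) tails, so this is not a measure of miR-302 levels at this stage. The precursors Mir302a to Mir302d, on chromosome 3 from 127545228 to 127545689, had 1 read in WT1 and 0 in the remaining libraries, and Mir367 had 1 read in KO2, so the loss could not be read from them. Larp7, whose span holds the cluster on the other strand (chromosome 3, 127536714 to 127553349, minus strand), had 2265, 2984, 2334 and 2147 in KO1 to KO4, against 3086, 2638 and 1799 in WT1 to WT3 (log2 fold change -0.02, 95% interval -0.55 to 0.51), with complete overlap. Within 2 Mb of the cluster 9 genes were tested, with a median of -0.02. With a limma p below 0.05, 2 of them were higher and 1 lower, against 3.14% and 2.91% of all genes. The higher were Neurog2 (1.44) and Elovl6 (0.69). The lower was Zgrf1, the neighbour of Larp7, at 57.2, 78.1, 115 and 27.8 in KO1 to KO4, against 125, 93.4 and 176 in WT1 to WT3 (-1.03 ± 0.45), with WT2 inside the KO range. Within 5 Mb the 29 tested genes again had a median of -0.02. Of other microRNA genes with related seeds, Mir17hg, the host of miR-17, had 65, 121, 142 and 89.3 in KO1 to KO4, against 175, 213 and 119 in WT1 to WT3 (-0.71 ± 0.33, limma adjusted p = 0.815), with WT3 inside the KO range.

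The authors' deposited tables of selected genes list 539 genes as higher and 437 as lower in KO at this stage. Of those higher 18, and of those lower 8, had in the authors' deposited tables an adjusted p below 0.05. Of the 465 higher and 395 lower genes that were tested here, every one had the same sign here, and 376 and 328 of them had a limma p below 0.05. The deposited values come from the same 7 libraries, and their genes were selected at an unadjusted p below 0.05. The likeness was therefore fixed in advance and is not independent evidence.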

How the data were processed

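RNA from sorted E8.5 cells was made into cDNA with a low-input kit that primes on poly(A) tails (SMART-Seq v4) and sequenced, per the labels' protocols. STAR 2.7.0f, FastQC 0.11.5 and the mm10 build are named in the submitters' processing notes, and no source used here gives the counting tool or strand setting. Overlapping and antisense genes therefore cannot be told apart. The authors deposited a normalised signal per gene and library, which is the read count divided by 1 factor per library. Dividing out these factors gave whole reads for 100.0% of the values within 0.01. The authors' deposited tables of selected genes hold log2 fold changes, test scores and p-values (unadjusted and adjusted), all of them selected at an unadjusted p below 0.05.

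Differences were tested on log2(value + 1) with limma 3.58.1 (R 4.3.3; trended empirical Bayes, two-sided, Benjamini-Hochberg adjustment over all 12257 genes with a mean of 10 or more). Alternatives were the quasi-likelihood test of edgeR 4.0.16 and DESeq2 1.42.0, both on the recovered reads. Scripts were tested on simulated data. Tables and figures were made with Python 3.11.15, pandas 2.3.3, numpy 2.4.6 and matplotlib 3.10.9. Depth was 9008784 to 13517860 reads per library, and replicates differed beyond sampling noise, with pair correlations of 0.916 to 0.979. Same-numbered KO and WT libraries had deviations from their group means that correlated at 0.076, -0.025 and 0.554, so the numbers were not taken to pair samples.

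The members and gene lists were chosen with earlier results of these data known, and the lists described are a selection. Lists are given by counts and medians, with no test. Named genes were Larp7 and the cluster genes, the 12 higher and 12 lower genes with the smallest limma p among those whose libraries did not overlap and whose higher mean was 50 or more (no placeholder symbols), all DESeq2 calls, up to 4 members per list by smallest p, preset crest and target genes, and the 8mer genes with the 6 smallest p on either side. A further 15 genes were named after their values were seen, among them Dlx1, Prrx1, Twist2, Hoxb3, Hist1h1a, Pax6, Sox21, Mir17hg and Zgrf1. Seed matches were searched in the longest annotated 3′UTR of each gene (GENCODE M21).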

Additional observations from a re-analysis of the deposited data

Results flagged for a closer look

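Each of 187 named genes was checked for a KO library that stood far from the other 3 KO libraries, and 15 had one. Chance alone flags about 1 in 20 groups. KO4 stood apart for 7 genes. It was the lowest KO library for Map1b (1122), Prc1 (1089.6), Kif2c, a kinesin of the spindle (903), and Egr2 (19.7), and the highest for Acvr2b (2166), Hnrnpul2, an RNA-binding protein (184), and Sox21 (451). For each of these 7 genes KO4 lay on the WT side of the other KO libraries. KO1 was the highest KO library for Lum (102), Olig3 (46.2), Aldh1a3, which makes retinoic acid (371), Plagl1, an imprinted zinc-finger gene (129), and Col3a1 (211). KO3 was the highest KO library for Sox9 (2162) and Gli2, a transcription factor of the Hedgehog pathway (129), and the lowest for A930005H10Rik (47.5). KO2 stood apart for 0 of the 187 genes.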

How the results depend on the processing

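The limma count of 0 called genes stayed at 0 with pseudocounts of 8 and 0.1, with a minimum mean of 100 or none, with TMM factors, quantile normalisation, removal of the length and GC trend and with edgeR. DESeq2 called 32 genes, and leaving out single libraries gave 0 to 3 (3 without KO3, 2 without KO4). The replicate number as a block, which leaves out KO4 because it has no WT partner, gave 663 calls (151 higher, 512 lower), of which 29 were shared with DESeq2. The numbers did not pair the samples, and the cause was not tested. The 742 genes with an unadjusted p below 0.05 became 413 at a minimum mean of 100, 2937 with the replicate block, 1257 with code numbers 163 and 169 as a block, 1396 with code numbers in 3 blocks, 1114 with the trend removed, 149 without KO1 and KO2, and 367 to 1412 with single libraries left out. The fit in 3 blocks, the difference of KO4 and WT2, and the 3′UTR length stratum were chosen after seeing the data. The 3 blocks were code numbers 163 with 169, 157 with 214, and 128 alone, which pools different code numbers. As 128 holds only KO1 and KO2, these add nothing to the genotype difference in that fit.

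The 8mer median exceeded that of genes with no match by 0.16, and by 0.090 to 0.25 over all settings. The median around the locus (-0.02) ran from -0.070 to 0.15 with single libraries left out, at 0.147 without WT1 and 0.122 without WT3.

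Of the named genes 7 changed sign. Sox9 was at 0.0062 (quantile), 0.096 (edgeR), 0.063 (DESeq2), 0.096 (replicate block), 0.25 (without KO1 and KO2) and 0.086 (3 blocks), and ran from -0.42 to 0.12 with single libraries left out, above 0 without KO1, KO2, KO4 or WT3. Sox10 was at 0.054 (163 and 169 block), 0.029 (trend removed), 0.060 (without KO1 and KO2) and 0.12 (3 blocks). Larp7 was at 0.13 (quantile), 0.036 (replicate block) and 0.061 (163 and 169 block), and ran from -0.24 to 0.15 with single libraries left out, above 0 without KO1, KO4, WT1 or WT2. Wnt1 ran from -0.17 (without KO3) to 0.43. Snai1 was at 0.064 and Sox5 at -0.062 in 3 blocks, and Pou5f1 at 0.056 with edgeR. For all 7 the cause was not tested.

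Of the 36 list medians 21 changed sign when 1 library was left out. Leaving out WT3 gave 0.07 for the Wnt pathway, 0.058 for Wnt targets, 0.13 for Hedgehog, 0.10 for growth and Hippo genes, 0.22 for FGF genes, 0.31 for guidance genes, 0.0020 for chromatin remodellers, 0.16 for matrix genes, 0.29 for delamination genes, 0.075 for Polycomb and related genes and -0.12 for imprinted genes. The neural plate border was at -0.08 without KO4 and -0.02 without WT3, and the crest specifiers were above 0 without KO1, KO2, KO4, WT1 or WT2. Pluripotency, oxidative phosphorylation, S phase, midbrain, progenitor, Notch, retinoic acid and interferon lists also changed sign. Reported miR-302 targets were at 0.14 without WT3, and the hindbrain at 1.08 with the 163 and 169 block. At a minimum mean of 100, progenitor genes were at -0.51.

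With 4 and 3 libraries the median 95% interval was about ±0.70, so smaller differences could not be told from none for the typical gene, even before adjustment. Code number, litter and genotype cannot be told apart for KO1, KO2, KO3, WT1 and WT3.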
